A study of Caenorhabditis elegans with 2 samples.

Results

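The genes described here are 35 intestine genes of the nematode Caenorhabditis elegans listed as controlled by GATA transcription factors other than ELT-3, out of 19973 protein-coding genes. They were chosen by name as known intestinal genes, not by their ELT-3 signal, though with earlier results of these data known. All 35 names were found in the gene annotation. The data are chromatin immunoprecipitation sequencing (ChIP-seq) of ELT-3, a GATA factor of the epidermis, from whole worms at the third larval stage (L3). All material was strain OP75, which has the mutation unc-119(ed3) on chromosome III and the integrated transgene wgIs75, from which green fluorescent protein fused to ELT-3 is made, with a promoter that the labels do not give. There was 1 group of 2 biological replicates of pooled males and females, with 1 library each, and no other genotype or stage. The antibody is labelled as directed at ELT-3 and the experiment as directed at the fluorescent fusion, so which part of the fusion the antibody bound is not settled here. Whole animals were used, so signal from different tissues cannot be told apart. The control library was not analysed here, and no read depth is stated in the sources used.

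GATA factors are zinc finger proteins that bind the core letters GATA. In the worm endoderm a cascade of them acts in order: END-1 and END-3 specify the embryonic gut precursor, and ELT-2 and ELT-7 then switch on and maintain the genes of the differentiated intestine. ELT-2 prefers the site TGATAA, and ELT-3, a factor of epidermal cells, belongs to the same family and binds the same core.

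The intestine genes carried ELT-3 regions about as often as other genes, and none carried a peak of the strictest list. The deposit has 1 list of regions for the pooled replicates (21761 regions), 1 for each replicate (30000 each), and a list of 280 peaks that passed a threshold of the irreproducible discovery rate (IDR), which measures how well replicates rank peaks alike. The first 3 lists hold background regions together with peaks. A region was assigned to a gene when its summit lay between 2000 bp upstream of the annotated 5′ end and the 3′ end, here called the gene window. Regions were ranked within each list by the authors' signal value, with rank 1 the strongest. A pooled region lay in the window of 21 of the 35 intestine genes (60.0%), beside 60.4% of all protein-coding genes. An IDR peak lay in the window of 0 of 35, beside 1.36% of all genes.

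The sequences at 10 of the 43 pooled summits of these genes show places with and without a GATA site. They were picked to display sites and are not in proportion, since 13 of the 43 hold a site and 30 do not. A GATA site is the motif WGATAR, where W stands for A or T and R for A or G, on either strand, so TTATCA is TGATAA read on the opposite strand, and TGATAA is itself a WGATAR site. Each window below is 101 bases of the ce11 genome centred on a pooled summit, written 5′ to 3′ on the strand of the gene, with WGATAR sites in capitals. These 7 windows hold a site:
fat-6 summit of rank 564, chrIV:11914975-11915075, minus strand: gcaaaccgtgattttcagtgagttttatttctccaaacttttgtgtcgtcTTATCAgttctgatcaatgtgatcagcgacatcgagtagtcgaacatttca
vit-2 summit of rank 1218, chrX:5099891-5099991, plus strand: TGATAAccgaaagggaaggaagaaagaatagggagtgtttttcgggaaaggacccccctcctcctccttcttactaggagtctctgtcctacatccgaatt
spp-5 summit of rank 3183, chrX:7321380-7321480, minus strand: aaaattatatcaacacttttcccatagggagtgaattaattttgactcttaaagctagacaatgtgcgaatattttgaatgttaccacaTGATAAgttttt
spp-5 summit of rank 6364, chrX:7320591-7320691, minus strand: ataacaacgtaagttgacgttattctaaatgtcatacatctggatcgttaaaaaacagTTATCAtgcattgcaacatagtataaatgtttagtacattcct
mtl-1 summit of rank 9697, chrV:6691966-6692066, minus strand: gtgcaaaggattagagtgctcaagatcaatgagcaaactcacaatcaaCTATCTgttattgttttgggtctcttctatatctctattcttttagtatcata
pept-1 summit of rank 10643, chrX:6457616-6457716, plus strand: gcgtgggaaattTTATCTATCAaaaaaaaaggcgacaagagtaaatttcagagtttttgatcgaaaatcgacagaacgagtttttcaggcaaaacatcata
lys-8 summit of rank 13082, chrII:5585761-5585861, plus strand: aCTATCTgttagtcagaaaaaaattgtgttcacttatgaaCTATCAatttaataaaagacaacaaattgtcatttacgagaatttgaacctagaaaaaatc

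In fat-6, at the strongest region of all the intestine genes, the middle of the site was 2.5 bp from the summit. It was 0.5 bp away in mtl-1, 10.5 bp away at the nearer spp-5 region and 47.5 bp away in vit-2, where the site is the first 6 letters of the window. In pept-1 the pair of sites overlaps, so its capitals run together. The next 3 windows belong to eps-8, mtl-2 and ifc-2, which are among the 10 genes with the strongest pooled region, and hold no WGATAR site:
eps-8 summit of rank 1066, chrIV:14883604-14883704, plus strand: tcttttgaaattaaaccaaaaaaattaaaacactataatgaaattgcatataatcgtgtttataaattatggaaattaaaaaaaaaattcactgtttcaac
mtl-2 summit of rank 1797, chrV:14019074-14019174, minus strand: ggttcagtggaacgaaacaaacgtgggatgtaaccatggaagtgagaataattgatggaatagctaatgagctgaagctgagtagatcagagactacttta
ifc-2 summit of rank 2046, chrX:655523-655623, minus strand: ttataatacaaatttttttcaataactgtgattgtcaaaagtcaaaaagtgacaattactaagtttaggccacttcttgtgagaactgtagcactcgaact

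The third set shows promoters, as the 250 bases that end at the annotated 5′ end. The genes end-3, vit-3 and ftn-1 had no region in any of the lists, and each has 1 WGATAR site in these bases. The genes mtl-2 and lys-8 had the most sites of the 35 in this stretch by WGATAR and by TGATAA respectively, and both have a pooled summit further upstream.
end-3 250 bp upstream, chrV:14014445-14014694, plus strand: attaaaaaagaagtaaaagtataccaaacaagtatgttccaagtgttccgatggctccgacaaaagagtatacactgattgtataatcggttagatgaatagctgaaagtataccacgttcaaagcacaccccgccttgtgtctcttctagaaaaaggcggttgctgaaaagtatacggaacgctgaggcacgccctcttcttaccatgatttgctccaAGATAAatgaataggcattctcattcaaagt
vit-3 250 bp upstream, chrX:3572550-3572799, minus strand: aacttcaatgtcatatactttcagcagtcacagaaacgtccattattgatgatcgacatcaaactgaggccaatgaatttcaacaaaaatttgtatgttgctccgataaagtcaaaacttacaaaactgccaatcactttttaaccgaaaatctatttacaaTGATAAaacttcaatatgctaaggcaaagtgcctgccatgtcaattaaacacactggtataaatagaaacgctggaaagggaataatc
ftn-1 250 bp upstream, chrV:7547580-7547829, minus strand: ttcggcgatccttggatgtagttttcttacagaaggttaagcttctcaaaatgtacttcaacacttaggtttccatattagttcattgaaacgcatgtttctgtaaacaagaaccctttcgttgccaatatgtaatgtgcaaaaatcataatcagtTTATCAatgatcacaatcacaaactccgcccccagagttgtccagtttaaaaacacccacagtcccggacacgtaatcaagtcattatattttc
mtl-2 250 bp upstream, chrV:14018674-14018923, minus strand: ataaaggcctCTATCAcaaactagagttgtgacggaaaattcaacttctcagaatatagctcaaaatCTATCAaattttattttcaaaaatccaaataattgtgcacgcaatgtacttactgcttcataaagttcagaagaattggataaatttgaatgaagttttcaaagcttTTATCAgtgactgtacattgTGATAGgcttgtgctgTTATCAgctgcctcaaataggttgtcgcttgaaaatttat
lys-8 250 bp upstream, chrII:5585928-5586177, plus strand: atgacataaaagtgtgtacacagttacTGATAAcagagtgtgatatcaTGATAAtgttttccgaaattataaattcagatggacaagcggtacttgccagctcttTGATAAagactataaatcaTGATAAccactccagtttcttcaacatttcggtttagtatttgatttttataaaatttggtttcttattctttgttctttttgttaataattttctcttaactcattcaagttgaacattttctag

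Within 50 bp of the summit, 13 of the 43 pooled regions in windows of the intestine genes held a WGATAR site (30.2%), beside 23.9% of all pooled regions. In replicate 1 the count was 10 of 54 (18.5%), beside 23.0% of all its regions, and in replicate 2 it was 13 of 62 (21.0%), beside 22.5%. The pooled share of the intestine genes was above that of all regions, and both replicate shares were below it. Equally wide windows whose centre was moved 500 bp rightwards from the pooled summits held a site in 11 of 43 cases (25.6%), beside 20.5% over all pooled regions. The moved windows held one in 16 of 54 cases (29.6%) in replicate 1, more than the summits there, and in 11 of 62 (17.7%) in replicate 2, fewer than the summits. In the IDR list, which has no region at these genes, 44.3% of summits had a site and 21.8% of the windows to the right.

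Of the 35 genes, 24 had a region in the replicate 1 list, beside 71.7% of all genes, and 29 had one in the replicate 2 list, beside 72.5%. Both replicate lists had a region for 21 genes, beside 56.9% of all genes. The pooled list and both replicate lists had one for 17, beside 47.4%. A further 4 genes had a pooled region and a replicate 2 region only: vit-4, mtl-2, fat-7 and lys-8. No gene had a pooled region and a replicate 1 region only. The other 14 genes had no pooled region. Of these, 4 had regions in both replicates (end-1, ifb-2, ifd-2 and pgp-1), 3 in replicate 1 alone (elt-2, ges-1 and asp-1), 4 in replicate 2 alone (elt-4, vit-1, cpr-6 and asp-3) and 3 in no list (end-3, vit-3 and ftn-1). For these smaller groups the share over all genes was not worked out, so they cannot be compared with other genes. The pooled list was made from the reads of both replicates, so it is not a further sample.

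**Figure D1:**
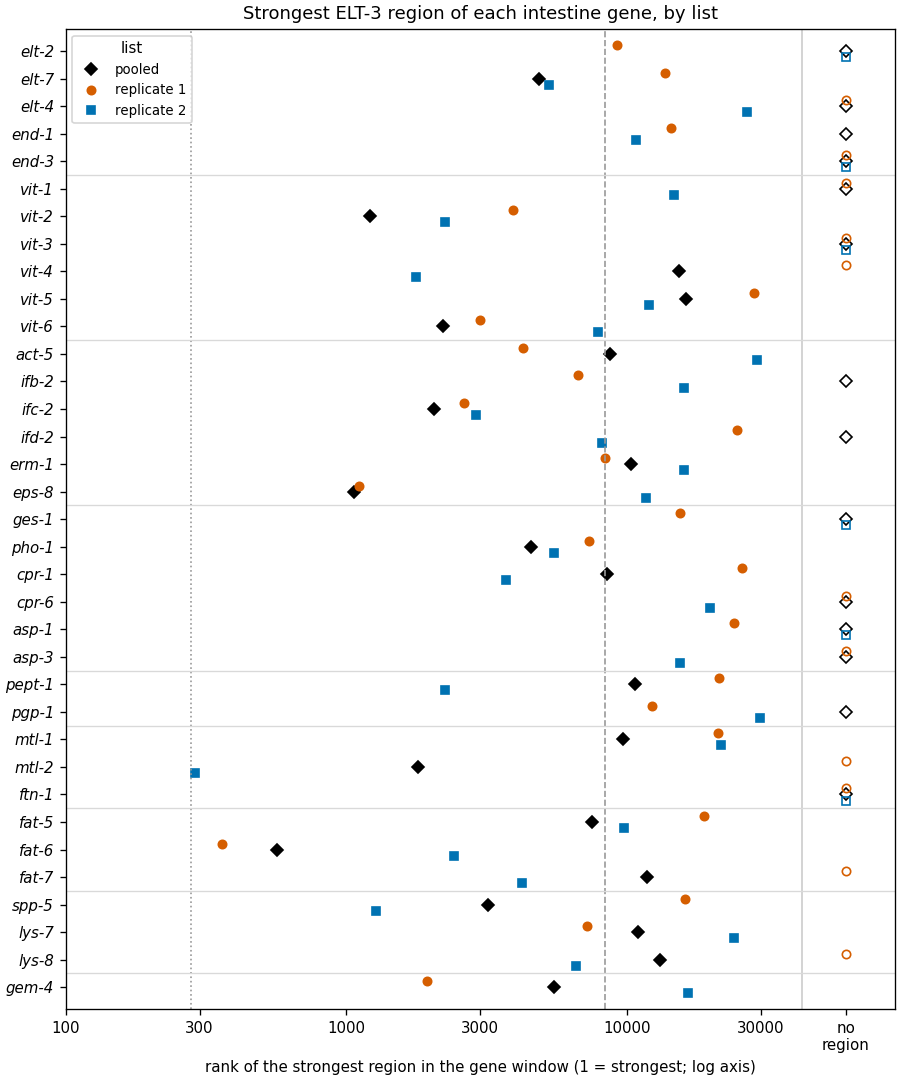
Rank of the strongest ELT-3 region in the window of each of the 35 intestine genes (log axis, 1 is strongest) in the pooled list (black diamonds), replicate 1 (orange circles) and replicate 2 (blue squares), with open symbols at the right for genes with no region and horizontal lines between gene groups. The dotted line marks rank 280, the size of the IDR list, and the dashed line the median best pooled rank of all genes with a pooled region, 8343; no symbol lies left of the dotted line.

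Of the 5 GATA factor genes, 1 had a pooled region, beside 60.4% of all genes. In replicate 1 the count was 3 and in replicate 2 it was also 3. Only 2, elt-7 and end-1, had regions in both, beside 56.9% of all genes. Over the 5 genes, regions per kb of window were 0.0547 in the pooled list, 0.328 in replicate 1 and 0.219 in replicate 2. The values over all genes were 0.218, 0.301 and 0.304. The 5 genes were thus below all genes in the pooled list and replicate 2 and above in replicate 1. The gene with a pooled region was elt-7, whose product acts beside ELT-2 in the differentiated gut. Its region lay 1300 bp upstream at rank 4859 (signal 23.2), held no WGATAR site within 50 bp of its summit, and was also in the window of C18G1.9. The replicate 1 summit nearest to it was 1 bp away at rank 17199, and the replicate 2 summit was 79 bp away at rank 5262. The gene elt-2, for the main intestinal GATA factor, had 1 region, in replicate 1 at rank 9198 (signal 10.5) in an intron. In elt-4, a small GATA gene beside elt-2, the single region was in replicate 2 at rank 26748, near the end of that list. The endoderm specifier end-1 had regions in both replicates, with best ranks 14300 and 10738, upstream in the first and in an intron in the second. Its partner end-3 had none.

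Of the 6 vitellogenin genes, which encode yolk proteins that the adult hermaphrodite intestine secretes, 4 had a pooled region, beside 60.4% of all genes. In vit-2 the strongest one was 1101 bp upstream at rank 1218 (signal 31.4), with a TGATAA site near the edge of the summit window. Summits of both replicates lay within a few bases of it, at 6 bp (rank 3930, signal 13.4) and 2 bp (rank 2253, signal 17.4). A second vit-2 region, 1976 bp upstream at rank 6608, was also in the window of acn-1. In vit-6 a pair of regions lay in coding exons, 3280 and 4878 bp from the 5′ end, at ranks 2200 (signal 27.5) and 2738 (signal 26.2), and neither had a site at the summit. Each had summits of both replicates within 28 bp, so vit-6 was matched in both libraries away from its promoter. At the 5′ end itself, replicate 1 alone had a region, 7 bp into the gene at rank 19450 (signal 7.99). The best vit-6 ranks were 2994 in replicate 1 and 7878 in replicate 2. In vit-5 the region was 1830 bp upstream at rank 16224 (signal 16.8), with a site 11.5 bp from the summit. It was also in the windows of cht-1 and C04F6.9. A replicate 2 summit was 10 bp away at rank 12009, and the nearest replicate 1 summit was 530 bp away at rank 29325. The best replicate 1 region of vit-5, at rank 28314, was elsewhere, 1089 bp upstream. In vit-4 it was 438 bp upstream at rank 15249. Replicate 1 had no vit-4 region, and replicate 2 had one at rank 1768. The gene vit-1 had replicate 2 regions alone, in coding exons, the best at rank 14665, and vit-3 had none.

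Parts of the windows of vit-1 to vit-5 occur more than once in the genome, and reads from there cannot be placed at 1 gene. The share of 31-base words in the gene window that occur once in the genome was 38.7% in vit-4, 41.3% in vit-3, 55.9% in vit-5, 82.8% in vit-2 and 83.1% in vit-1, and 100% in vit-6. Outside the vitellogenins it was under 90% in mtl-1 (62.6%), ftn-1 (78.8%), cpr-6 (89.5%) and ifc-2 (89.9%). Of the 9 genes under 90%, 5 had a pooled region, and of the other 26, 16 did. How reads with several matches were treated by the authors is not stated in these sources, and the part of this in the missing regions was not tested.

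All 6 genes of the apical cytoskeleton, which shapes the microvilli and the filament sheath below them, had regions in both replicates, beside 56.9% of all genes, and 4 had a pooled region, beside 60.4%. Their windows were long, with a median of 7766 bp beside 4027 bp over all genes, and the pooled density was 0.212 regions per kb beside 0.218. The gene eps-8, for an actin-capping and bundling protein of microvilli, had the second best pooled rank of the 35. Its region lay in an intron 4170 bp from the 5′ end at rank 1066 (signal 32.5). A replicate 1 summit coincided with it at rank 1108 (signal 18.98), and a replicate 2 summit was 17 bp away at rank 11700 (signal 12.0). The replicates thus ranked the same place very differently. Another 3 pooled regions of eps-8 were also intronic. In ifc-2, for an intestinal intermediate filament, the strongest region was 669 bp upstream at rank 2046 (signal 28.0) and was shared with the window of lpr-7. The nearest replicate summits were 110 bp away in replicate 1 (rank 2621, signal 14.9) and 9 bp away in replicate 2 (rank 5691, signal 14.4). The gene for the microvillar actin, act-5, had 3 pooled regions, at ranks 8662 (intron), 9111 (1935 bp upstream) and 18899 (735 bp upstream). Both upstream regions held a WGATAR site within 50 bp of the summit and were also in the window of shpk-1. The intronic one had summits of replicate 1 at 6 bp and of replicate 2 at 53 bp, while the one 1935 bp upstream had a replicate 1 summit at the same base (rank 4259, signal 13.1) and no replicate 2 summit nearer than 2548 bp. The gene erm-1, whose protein ties actin to the apical membrane, had a region 153 bp upstream at rank 10307 (signal 19.2) and one in an intron at rank 11287. Replicate 1 had summits 3 bp and 0 bp from these, and replicate 2 had none within 100 bp of either. The intermediate filament genes ifb-2 and ifd-2 had no pooled region. Their best replicate ranks were 6698 and 15908 for ifb-2 and 24627 and 8122 for ifd-2.

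Among 6 hydrolase genes, 2 had a pooled region, beside 60.4% of all genes. The intestinal acid phosphatase gene pho-1 had 3 regions, all within the gene. The strongest was in a coding exon 2191 bp from the 5′ end at rank 4547 (signal 23.5), with a replicate 1 summit 41 bp away (rank 17919) and a replicate 2 summit 23 bp away (rank 5481, signal 14.6). A weaker one, in an intron 150 bp from the 5′ end at rank 10769, held a WGATAR site and had a replicate 1 summit 37 bp away at rank 7326. In cpr-1, for a cathepsin B-like protease, the region lay in a coding exon 975 bp from the 5′ end at rank 8465 (signal 20.2). Replicate 2 ranked it far higher than replicate 1, at 3702 (signal 15.8) and 25645 (signal 7.02). The other 4 had a region in a single replicate. The gut esterase gene ges-1, a classic target of intestinal GATA factors, had replicate 1 regions in introns, the best at rank 15389 (signal 8.77). The aspartic protease genes asp-1 and asp-3 had regions at rank 23960 in replicate 1 and 15409 in replicate 2, and cpr-6, a second cathepsin B-like gene, had one at 19786 in replicate 2.

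The 2 transporter genes had regions in both replicates, beside 56.9% of all genes. For pept-1, which takes up oligopeptides from the gut lumen, the best pooled region was in an intron 794 bp from the 5′ end at rank 10643 (signal 19.03), and its summit window held the overlapping sites printed above. Replicate 2 had a summit 45 bp away at rank 2254 (signal 17.4), while the nearest replicate 1 summit was 2347 bp away at rank 21221. The gene for the P-glycoprotein efflux pump pgp-1 had no pooled region, and its best replicate ranks were 12260 and 29728.

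The metallothionein genes mtl-1 and mtl-2, whose proteins bind heavy metals, both had pooled regions upstream, and the ferritin gene ftn-1, for iron storage, had none. Over all genes, 60.4% had a pooled region in the window. In mtl-2 the stronger region was 451 bp upstream at rank 1797 (signal 28.7). A replicate 2 summit coincided with it at rank 289 (signal 24.6), the best replicate 2 rank of the 35 genes. Replicate 1 had no region in the mtl-2 window, and its nearest summit was 6154 bp away. That window is fully made of 31-base words that occur once, and the region is also in the windows of srh-308 and T08G5.1. In mtl-1 the region was 153 bp upstream at rank 9697 (signal 19.5). Both replicates had a summit near it but low in their lists, 70 bp away at rank 21750 and 64 bp away at rank 21515.

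The 3 fatty acid desaturase genes all had pooled regions, beside 60.4% of all genes. Their enzymes put the first double bond into palmitic acid (fat-5) or stearic acid (fat-6 and fat-7). The gene fat-6 had the best pooled rank of all 35 genes, 564 (signal 38.3), and was the single gene with one of the 1000 strongest pooled regions, beside 4.5% of all genes. This region lay in an intron 662 bp from the 5′ end, and also in the window of ZK822.9. A replicate 1 summit was 39 bp away at rank 360 (signal 26.8), the best replicate 1 rank of the 35, and a replicate 2 summit was 26 bp away at rank 19553 (signal 10.2). Replicate 2 had a further, stronger region that overlaps this pooled one, at rank 5628 (signal 14.5), with its summit at the edge of the pooled region and a pair of WGATAR sites within 50 bp. The pooled region thus had signal in both libraries, at a better rank in replicate 1. The second fat-6 region, 432 bp upstream at rank 4365 (signal 23.7), had a replicate 2 summit 15 bp away at rank 2410 (signal 17.2) and no replicate 1 summit nearer than 1133 bp. Another fat-6 region, 1610 bp upstream at rank 11174, had summits of replicate 1 at 20 bp (rank 19607) and of replicate 2 at the same base (rank 21260). In fat-5 the region was in a coding exon 510 bp from the 5′ end at rank 7504 (signal 20.9). Its nearest replicate summits were at the same base in replicate 1 (rank 28517) and 16 bp away in replicate 2 (rank 12397). In fat-7 a pair of regions lay 1285 and 1496 bp upstream, at ranks 11806 (signal 18.5) and 15506 (signal 17.02). Replicate 2 had a summit 3 bp from the first at rank 4225, and replicate 1 had no fat-7 region.

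The 3 genes for antimicrobial and lysosomal proteins all had pooled regions, beside 60.4% of all genes. In spp-5, for a saposin-like protein that attacks bacterial membranes, the stronger region was 1076 bp upstream at rank 3183 (signal 25.4). A replicate 2 summit coincided with it at rank 1272 (signal 19.3), and the nearest replicate 1 summit was 792 bp away. The weaker one, 287 bp upstream at rank 6364 (signal 21.7), had summits of both replicates near it, 3 bp away at rank 16018 and 31 bp away at rank 7847. It was also in the window of spp-4. Both spp-5 summits had a TGATAA site within 50 bp. In the lysozyme gene lys-7 the region was in a coding exon 489 bp from the 5′ end at rank 10935 (signal 18.9), with best ranks of 7204 and 24065 in the replicates. The lysozyme gene lys-8 had a region 367 bp upstream at rank 13082 (signal 17.9). Its window held a pair of sites, replicate 2 had a summit 2 bp away at rank 19522, and replicate 1 had none in the gene window.

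The copine gene gem-4, for a calcium-dependent membrane-binding protein, had 3 pooled regions within the gene. The strongest lay in a coding exon 1662 bp from the 5′ end at rank 5508 (signal 22.5) and was also in the window of T12A7.6. A replicate 1 summit was 25 bp away at rank 1930 (signal 16.2), and the nearest replicate 2 summit was 206 bp away at rank 17136 (signal 10.7).

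**Figure D2:**
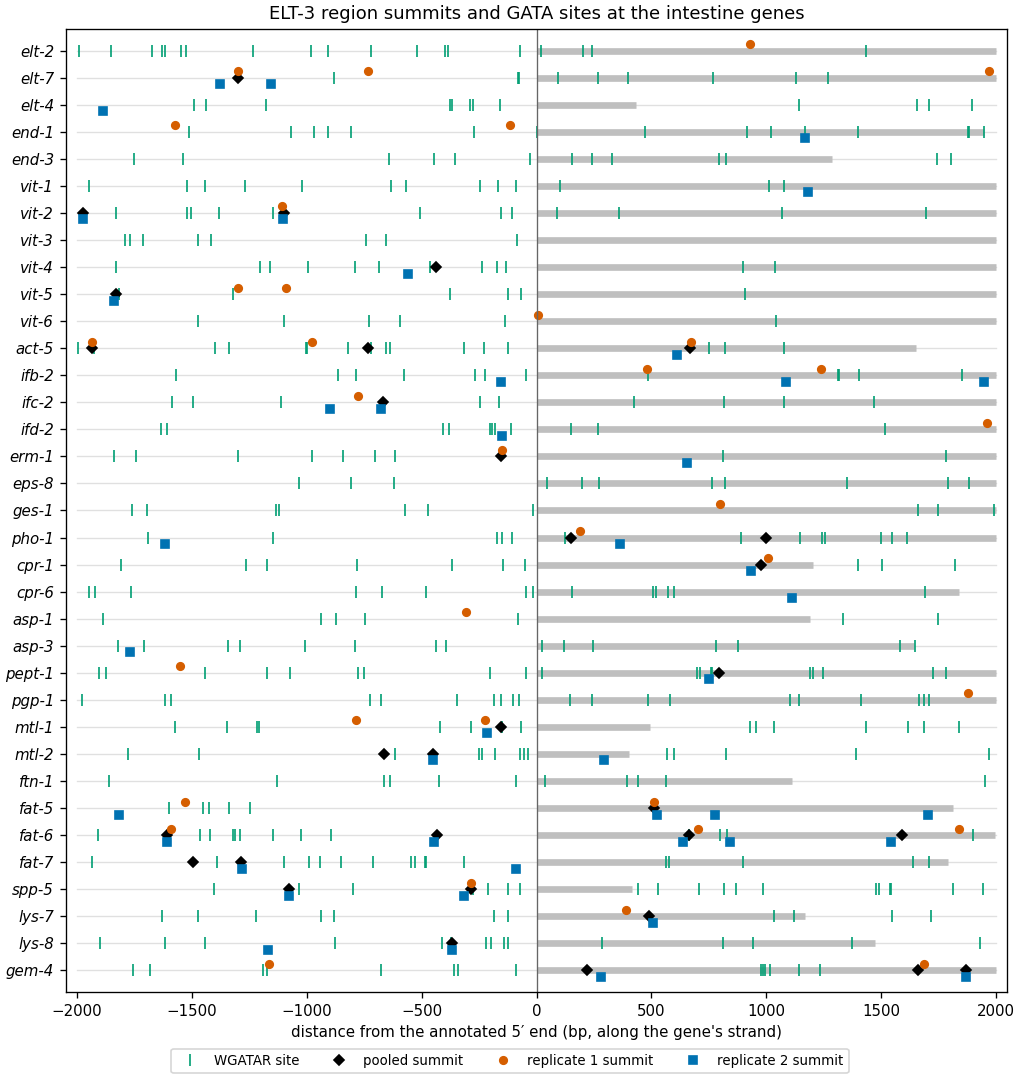
Summits of the pooled list (black diamonds), replicate 1 (orange circles) and replicate 2 (blue squares) and WGATAR sites (green ticks) over 2000 bp on each side of the annotated 5′ ends of the 35 genes, in bp along the strand of each gene, with gene bodies as grey bars; summits more than 2000 bp into a gene, as in eps-8 and vit-6, are outside the range. Pooled summits lie on both sides of the 5′ ends, and most WGATAR ticks have no summit beside them.

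Agreement between the replicates at the same place was limited. Of the 43 pooled regions of these genes, 13 had a summit of each replicate within 100 bp (30.2%), beside 25.1% of all pooled regions. A replicate 1 summit was within 100 bp of 20 and a replicate 2 summit within 100 bp of 31, while 5 had neither. Over all 21761 pooled regions these counts were 11590, 13493 and 2148, in that order. Summits of the replicates within 100 bp of each other in the gene window, whatever the pooled list held, were found for 11 of the 35 genes: elt-7, vit-2, vit-6, act-5, mtl-1, pho-1, cpr-1, fat-5, fat-6, spp-5 and eps-8. The share over all genes was 22.2%. Among the 5000 strongest regions of each replicate list, 3 of the 35 genes had a region in both, vit-2, ifc-2 and fat-6, beside 8.11% of all genes. Only in vit-2 were these regions at the same place. In ifc-2 the replicate 1 region was 779 bp upstream, and those of replicate 2 were 6355 and 11807 bp into the gene. In fat-6 the replicate 1 region was 701 bp into the gene. The replicate 2 regions of fat-6 were 447 bp upstream and 1545 bp into the gene.

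By position, 19 of the 43 pooled regions were upstream of the gene, 13 in introns and 11 in coding exons, and 19 of the 43 lay in the window of another gene as well. The density was 0.217 regions per kb of window, beside 0.218 over all genes, and the median windows were of similar length, 4076 bp and 4027 bp. The density was 0.273 per kb beside 0.301 in replicate 1 and 0.313 beside 0.304 in replicate 2.

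The strength of the regions was also close to that of other genes. Among genes with a pooled region the median best rank was 7504 for the intestine genes and 8343 for all. Placed among all genes by their strongest region, with genes that have none tied lowest, the intestine genes had a median percentile of 60.3 in the pooled list, 45.0 in replicate 1 and 58.2 in replicate 2, where all genes have their median in the middle by construction. The median was thus above the middle in the pooled list and replicate 2 and below it in replicate 1. Of the 5000 strongest pooled regions, at least 1 was in the window of 9 intestine genes, beside 19.6% of all genes. The strongest region of any intestine gene had a signal of 38.3, below 46.8, the lowest signal in the IDR list, whose peaks are the 280 strongest pooled regions. The IDR peak nearest to a 5′ end of an intestine gene was 9.211 kb downstream of that of ifd-2, beyond its 3′ end, and the median distance was 184 kb.

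**Figure D3:**
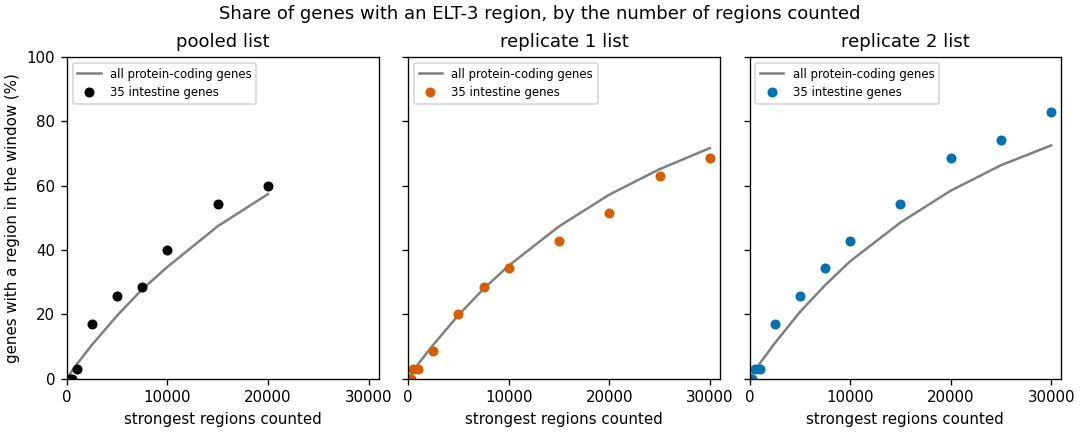
Percent of genes with a region in the gene window (vertical axis) against the number of strongest regions counted (horizontal axis), for the 35 intestine genes (points) and all protein-coding genes (grey line), in the pooled list and in each replicate list. Among the 2500 strongest regions the points are at 17.1%, 8.57% and 17.1% in the pooled, replicate 1 and replicate 2 lists, where the lines are at 10.5%, 10.5% and 11.0%.

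The counts differed by chromosome. On the X chromosome 6 of 13 intestine genes had a pooled region, beside 71.4% of all X genes. In replicate 1 the X count was 7 of 13 beside 80.2%, and in replicate 2 it was 11 of 13 beside 81.7%. On chromosome V the pooled count was 7 of 12 beside 57.1%, and on chromosome IV it was 4 of 5 beside 53.3%. The X genes include vit-1 to vit-5, cpr-6 and ifc-2, all with windows under 90% in 31-base words that occur once. Of these, vit-2, vit-4, vit-5 and ifc-2 had a pooled region, and vit-1, vit-3 and cpr-6 did not. Of the X genes at 97% or more, pept-1 and spp-5 had a pooled region, and elt-2, elt-4, ifd-2 and asp-3 did not. The part of repeated words in the X count was not tested.

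The promoters of these genes were rich in GATA sites, which goes with their choice as targets of GATA factors. Within 250 bp upstream, 28 of 35 had a WGATAR site, beside 49.1% of all genes, and 25 had TGATAA, beside 26.8%. Within 1000 bp upstream, 34 had WGATAR, beside 89.9%, and 31 had TGATAA, beside 66%. The median number of WGATAR sites in 1000 bp was 4, beside 2 over all genes, and that of TGATAA was 2 beside 1. The gene fat-7 had the most WGATAR sites in 1000 bp, 9, and none in the nearest 250 bp. The gene fat-5 was the one without a site in 1000 bp, and fat-6 had 1. The desaturase genes, all with pooled regions, had no site in the nearest 250 bp. The 4 genes with the most WGATAR sites there were mtl-2 with 5 and lys-8 with 4, which have pooled regions, and ifd-2 and pgp-1 with 4, which do not.

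A pooled summit lay within 1000 bp upstream of 9 of the 35, beside 23.4% of all genes. The 9 genes were vit-4, act-5, ifc-2, erm-1, mtl-1, mtl-2, fat-6, spp-5 and lys-8. All 9 had a WGATAR site in those 1000 bp, with a median of 5, and 25 of the other 26 had one, with a median of 4. TGATAA within 250 bp was present in 7 of the 9 and in 18 of the 26. The other medians were also higher with a promoter summit, at 2 and 1 for WGATAR within 250 bp, 2 and 1 for TGATAA within 250 bp, and 3 and 2 for TGATAA within 1000 bp. By the whole gene window, the genes with a pooled region had medians of 4 WGATAR sites in 1000 bp and 2 in 250 bp, and those without had 4.5 and 1. The TGATAA medians by the whole window were the same with and without a region, at 2 in 1000 bp and 1 in 250 bp. These differences were 1 site or less, the WGATAR median in 1000 bp by the whole window was the one that was lower with a region, and none was tested.

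Of 152 WGATAR sites within 1000 bp upstream of the 35 genes, 16 lay inside a pooled region (10.5%), and pooled regions covered 10.2% of those bases. Over all genes 10.2% of sites lay inside, with 8.73% of bases covered. In replicate 1 the share of sites inside was 6.58% for the intestine genes and 13.8% for all, and in replicate 2 it was 12.5% and 12.3%. The share of bases covered was 9.43% and 12.2% in replicate 1, and 10.8% and 11.2% in replicate 2. For comparison, all protein-coding genes without TGATAA in 1000 bp had a pooled summit there in 22.4% of cases, and those with 4 or more sites in 27.1%. The intestine genes with 4 or more had one in 3 of 7 cases and those with none in 1 of 4.

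**Figure D4:**
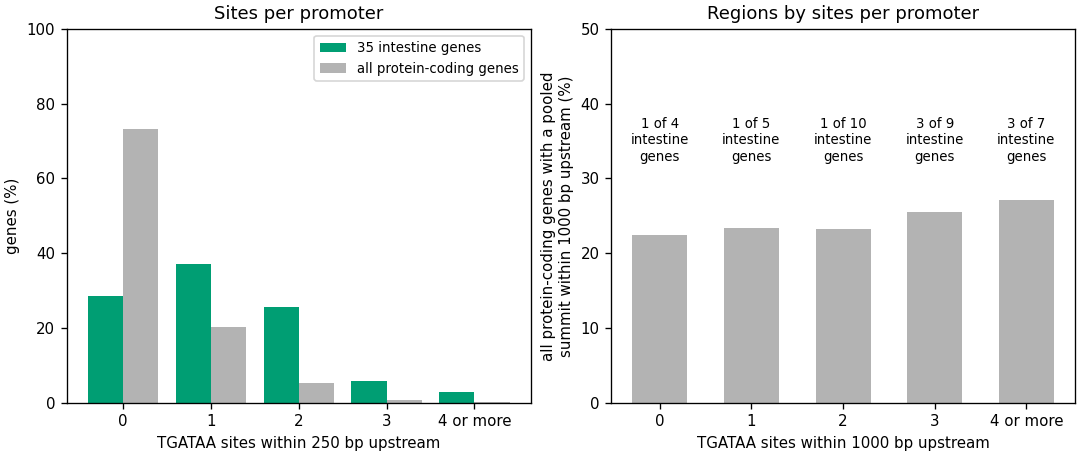
Left, percent of the 35 intestine genes (green) and of all protein-coding genes (grey) by number of TGATAA sites within 250 bp upstream; right, percent of all protein-coding genes with a pooled summit within 1000 bp upstream by number of TGATAA sites there, with the counts for the intestine genes written above the bars. The grey bars at the right go from 22.4% to 27.1%, and 28.6% of intestine genes have no TGATAA within 250 bp, beside 73.2% of all genes.

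A second list of 38 intestine genes and regulators, among them further proteases, lysozymes, lipases and desaturases, gave a similar share with a pooled region. A pooled region was in the window of 25 (65.8%), an IDR peak in 0, and a pooled summit within 1000 bp upstream of 5 (13.2%), while 30 had TGATAA within 250 bp. Over all protein-coding genes these shares were 60.4%, 1.36%, 23.4% and 26.8%, in that order. The share with a summit within 1000 bp upstream was below the 25.7% of the first list. Of the 71 ribosomal protein genes, 50 had a pooled region (70.4%), 7 an IDR peak (9.86%) and 41 a pooled summit within 1000 bp upstream (57.7%), while 19 had TGATAA within 250 bp (26.8%). Of the 156 numbered cuticle collagen genes, whose products the epidermis secretes, 100 had a pooled region (64.1%), 1 an IDR peak, 53 a pooled summit within 1000 bp upstream (34.0%) and 45 TGATAA within 250 bp (28.8%). The share of genes with TGATAA within 250 bp was highest in the intestine lists, and the share with a pooled region was highest in the ribosomal list. The ribosomal share was also highest in replicate 1, at 81.7% beside 71.7% of all genes. In replicate 2 it was the lowest, at 66.2% beside 72.5% of all genes. The first and second intestine lists had 82.9% and 84.2% there, and the collagens 75%. These differences between lists were not tested.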

How the data were processed

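ChIP-seq of ELT-3 was measured in 2 biological replicates of L3 larvae. The README text in the deposit says that the replicate lists were derived from each replicate's alignments and a control, the pooled list from both, and the IDR list from these lists. The signal values are the authors' own, on a scaling that the sources used here do not give. The −log10 q-value is as the authors deposited it and was not used for ranking. For the aligner, peak caller, IDR threshold and read depth nothing is stated in those sources. As depth is unknown, counting error could not be estimated. Lists on ce10 were not used, and no coordinate was converted. All pooled regions are 356 bp wide.

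Regions on ce11 were placed by summit with Ensembl release 115 gene models of WBcel235, the same assembly, and coordinates are 1-based. WGATAR and TGATAA were searched on both strands in the genome sequence. Counts are given beside the same count over all 19973 protein-coding genes, with no test, since there is 1 group of samples. Scripts used Python 3.11.15, numpy 2.4.6, pandas 2.3.3 and matplotlib 3.10.9 and were checked on simulated data. Full values are given for genes with regions in the pooled and both replicate lists and for the 10 with the strongest pooled region, and all others are named. The members and lists were chosen with earlier results of these data known. Alternatives were other windows, overlap in place of summits, stronger regions only, each replicate alone, and other motifs and flanks.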

Additional observations from a re-analysis of the deposited data

How the results depend on the processing

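The count of 21 genes with a pooled region was 17 with 1000 bp upstream (52.0% of all genes) and 22 with overlap of 1 bp (63.5%). It was 13 with only the 2000 bp upstream counted (37.8% of all genes), 9 with the 5000 strongest regions and 1 with the 1000 strongest, which count fewer bases or regions by construction. With a single replicate list in place of the pooled list the count was 24 to 29, the median percentile 45.0 to 58.2 (60.3 pooled) and the share of summits with a WGATAR site 18.5% to 21.0% (30.2% pooled). With only the upstream bases the median percentile was 31.1 for these genes and for all genes alike, since it is the value shared by the genes without an upstream region, so it gives no comparison. The count of 21 with regions in both replicates was 3 with the 5000 strongest of each and 11 with summits within 100 bp. The summit share was 18.6% for TGATAA (11.5% of all regions) and 39.5% within 100 bp (41.0%). No alternative gave an IDR peak, including 5000 bp upstream (2.16% of all genes) and overlap (1.51%). The counts with TGATAA within 250 bp (25) and without genes under 90% in unique 31-base words (16) were chosen after seeing the data. Read depth is unknown, replicate lists end at 30000 regions, and no paired analysis was possible because there is 1 group.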

Other observations

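In the second list of intestine genes, 2 of 38 had one of the 1000 strongest pooled regions (5.26%), close to the 4.5% of all genes. The gene skn-1, for a regulator of endoderm specification and stress responses, had best ranks of 467 in the pooled list, 385 in replicate 1 and 356 in replicate 2. The ferritin gene ftn-2, the relative of ftn-1, had best ranks of 988, 427 and 4641. The next gene, fat-2, for another fatty acid desaturase, had best ranks of 1386, 373 and 2996. By best rank anywhere in the gene window, skn-1 was alike in both libraries, in contrast to mtl-2 and eps-8. Whether the skn-1 regions of the replicates lie at the same place was not examined. None of skn-1, ftn-2 and fat-2 had an IDR peak in its window.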
